A study of Mus musculus with 8 samples.

Results

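The 8 genes described here encode proteins of the cytotoxic granule of natural killer (NK) cells: the granzymes *Gzma*, *Gzmb*, *Gzmc*, *Gzmk* and *Gzmm*, perforin (*Prf1*), serglycin (*Srgn*) and the membrane protein *Nkg7*. They were selected by their symbols, and all 8 were found among the 48321 symbols counted. All 8 also passed the filter on low counts, which kept 12595 genes for testing. Cytotoxic granules are secretory lysosomes that an NK cell releases toward a bound target cell. Perforin forms pores in the membrane of the target and gives granzymes, a family of serine proteases, access to its cytosol, where they cleave proteins and set off cell death. Serglycin is the proteoglycan whose charged sugar chains hold granzymes and perforin in the granule matrix, and Nkg7 sits in the granule membrane and takes part in granule release.

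RNA was sequenced from NK cells sorted as CD45+ TCRb- NK1.1+ from lung and spleen, in 2 libraries for each of 4 groups. The groups were lung WT, lung KO, spleen WT and spleen KO, all of strain C57/Bl6, and the cells were freshly sorted without treatment. KO mice lack Ccl5-PE, the proximal enhancer of the chemokine gene *Ccl5*, which was deleted in the germ line with CRISPR, so that every cell of the mouse carries the deletion and effects within NK cells cannot be told apart from effects of other cells. Age and sex are given only for the study as a whole, which used mice of both sexes up to a few months old. No source states if separate mice gave the 2 libraries of each group, so n counts libraries, and a p-value measures only the spread between libraries, which may be technical.

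Depth differed widely, from 3132963 reads on genes in the shallowest library to 26482366 in the deepest, both of spleen KO. Levels are given as CPM, the reads on a gene out of every 1000000 reads on tested genes, after scaling each library by its TMM (trimmed mean of M values) factor. A gene with 3 reads stands at 0.115 CPM in the deepest library and at 0.979 CPM in the shallowest, and levels near those values rest on a handful of reads. Libraries of the same group differed by little more than the noise of counting: the chi-square per degree of freedom was 1.38 (lung WT), 1.18 (lung KO), 1.35 (spleen WT) and 1.37 (spleen KO). Across genes, the spread between libraries beyond counting noise came to a common coefficient of variation of 2.50%. With a spread this small, most tested genes passed the test in each comparison, and the counts of members that passed are therefore given beside that background.

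*Ccl5* itself, whose enhancer was deleted, served as a check of the labels. Its level was 19518 and 18349.6 CPM (lung WT), 2992 and 3195 (lung KO), 16679 and 15664 (spleen WT), and 2676 and 2432 (spleen KO). All 4 KO libraries lay far below all 4 WT libraries, as their labels say. The log2 fold change of KO against WT was -2.61 (SE 0.04, adjusted p = 2.3e-35) in lung and -2.67 (SE 0.04, adjusted p = 1.4e-35) in spleen by edgeR's quasi-likelihood test, where SE is the standard error. *Ncr1*, which encodes the activating receptor NKp46 of NK cells, was at 3165 and 3154 CPM (lung WT), 2876 and 2814 (lung KO), 2801 and 2877 (spleen WT), and 3456 and 3428 (spleen KO). *Klrb1c*, which encodes the sorted surface protein NK1.1, had the highest mean CPM of the NK markers over the 8 libraries, at 4036 and 4045 CPM (lung WT), 3305 and 3310.0 (lung KO), 3588 and 3612 (spleen WT), and 4186 and 4239 (spleen KO). Both genes were high in every library, so the label NK cell fits the RNA of all 4 groups.

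To compare levels between genes, CPM were divided by the summed exon length in kb, and group means are given ± SD over 2 libraries. *Gzma* stood at 24684 ± 797 CPM per kb (lung WT), 17892 ± 55.2 (lung KO), 15394 ± 292 (spleen WT) and 21859.8 ± 1213 (spleen KO). *Nkg7* was at 14151 ± 189 CPM per kb (lung WT), 9942 ± 306 (lung KO), 9669 ± 252 (spleen WT) and 13613 ± 429 (spleen KO). These 2 genes led the family in every group, far above the next. *Gzmb* was at 1935 ± 28.4 CPM per kb (lung WT), 1897 ± 9.98 (lung KO), 987 ± 4.59 (spleen WT) and 1038 ± 3.53 (spleen KO). *Prf1* was at 584 ± 25.4 CPM per kb (lung WT), 973 ± 21.1 (lung KO), 508 ± 4.67 (spleen WT) and 363 ± 0.328 (spleen KO). *Srgn* was at 255 ± 16.6 CPM per kb (lung WT), 252 ± 2.11 (lung KO), 214 ± 9.85 (spleen WT) and 239 ± 4.67 (spleen KO). Perforin RNA was thus below that of *Gzmb* and above that of *Srgn* per length of transcript in all 4 groups. *Gzmm* was at 14.0 ± 0.892 CPM per kb (lung WT), 12.1 ± 1.58 (lung KO), 23.5 ± 0.642 (spleen WT) and 42.1 ± 1.53 (spleen KO). *Gzmk* was at 4.47 ± 0.516 CPM per kb (lung WT), 8.31 ± 0.121 (lung KO), 13.5 ± 0.453 (spleen WT) and 16.0 ± 0.0280 (spleen KO). *Gzmc* was at 4.84 ± 0.943 CPM per kb (lung WT), 4.53 ± 0.260 (lung KO), 2.90 ± 0.150 (spleen WT) and 3.81 ± 0.736 (spleen KO). By counted reads the order of these low granzymes was *Gzmm*, *Gzmk*, *Gzmc* in lung KO and in both spleen groups. In lung WT the libraries of *Gzmk* and *Gzmc* overlapped and their order is not settled. Reads that *Gzmc* shares with close relatives were not counted, so its true place may be higher.

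Reads of the 8 members together made up a few percent of each library. Their mean share of all reads on genes (± SD, n = 2 libraries) was 4.09 ± 0.0439% (lung WT), 3.36 ± 0.0383% (lung KO), 2.84 ± 0.0558% (spleen WT) and 3.68 ± 0.138% (spleen KO). The share was therefore lower in KO than in WT libraries in lung and higher in spleen, with no overlap. Most of it came from *Gzma* and *Nkg7*, which ranked 1 and 3 by mean CPM among the 12595 tested genes. *Gzmb* ranked 41 and *Prf1* 61, followed by *Srgn* at 233, *Gzmm* at 4992, *Gzmk* at 7217 and *Gzmc* at 10251.

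Without the enhancer, the granule genes did not move as a block: some were higher and others lower, and the directions differed between the organs. In lung NK cells 4 of 8 members passed the test at an adjusted p below 0.05, beside 55.6% of all tested genes. Of these, 2 were higher in KO (*Prf1* and *Gzmk*) where 29.2% of genes were, and 2 were lower (*Gzma* and *Nkg7*) where 26.4% were. In lung the median log2 fold change was -0.03 over the 8 members and 0.02 over all tested genes. Lung NK cells without the enhancer thus held more perforin RNA and less of *Gzma* and *Nkg7*. In spleen NK cells 5 of 8 members passed the test at an adjusted p below 0.05, beside 57.1% of all tested genes. There 4 were higher in KO (*Gzma*, *Gzmm*, *Srgn* and *Nkg7*) beside 28.2% of genes, and 1 was lower (*Prf1*) beside 28.9%. In spleen the median log2 fold change was 0.37 over the 8 members and 0.00 over all tested genes. Spleen showed the reverse for these 3 genes. The medians and counts depended on an offset that removes each library's trend of level with GC content and exon length, which was added after seeing the data. With it the median in lung was 0.16 over the members and 0.00 over all genes, with 4 members called as higher (all genes 26.7%) and 2 as lower (27.5%). In spleen it was 0.01 over the members and 0.00 over all genes, with 3 members called as higher (all genes 28.1%) and 3 as lower (26.3%). With so many genes called under either treatment, the counts by themselves say nothing particular about granule genes.

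The difference between the organs was tested directly as the interaction, the KO effect in lung minus that in spleen. For it, 6 of 8 members passed the test at an adjusted p below 0.05, beside 61.6% of all tested genes. The effect in lung was the more positive for 2 of them (*Prf1* and *Gzmk*), where 32.5% of genes were called in that direction, and the more negative for 4 (*Gzma*, *Gzmm*, *Srgn* and *Nkg7*), where 29.0% were. For this contrast the median log2 fold change was -0.36 over the 8 members and 0.03 over all tested genes. With the offset for GC content and exon length the median changed sign, to 0.09 over the members and 0.01 over all genes, with 4 members called as higher (all genes 29.2%) and 3 as lower (28.9%): *Gzmb*, *Gzmk*, *Prf1* and *Srgn* were then the more positive in lung, and *Gzma*, *Gzmm* and *Nkg7* the more negative. The interaction uses the same libraries as the lung and spleen comparisons and adds no independent data. These calls rest on the small spread between libraries: with an assumed coefficient of variation of 0.2 for every gene, no member passed in lung or in spleen, and only *Prf1* passed for the interaction (adjusted p = 0.0244, edgeR's likelihood ratio test).

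**Figure D1:**
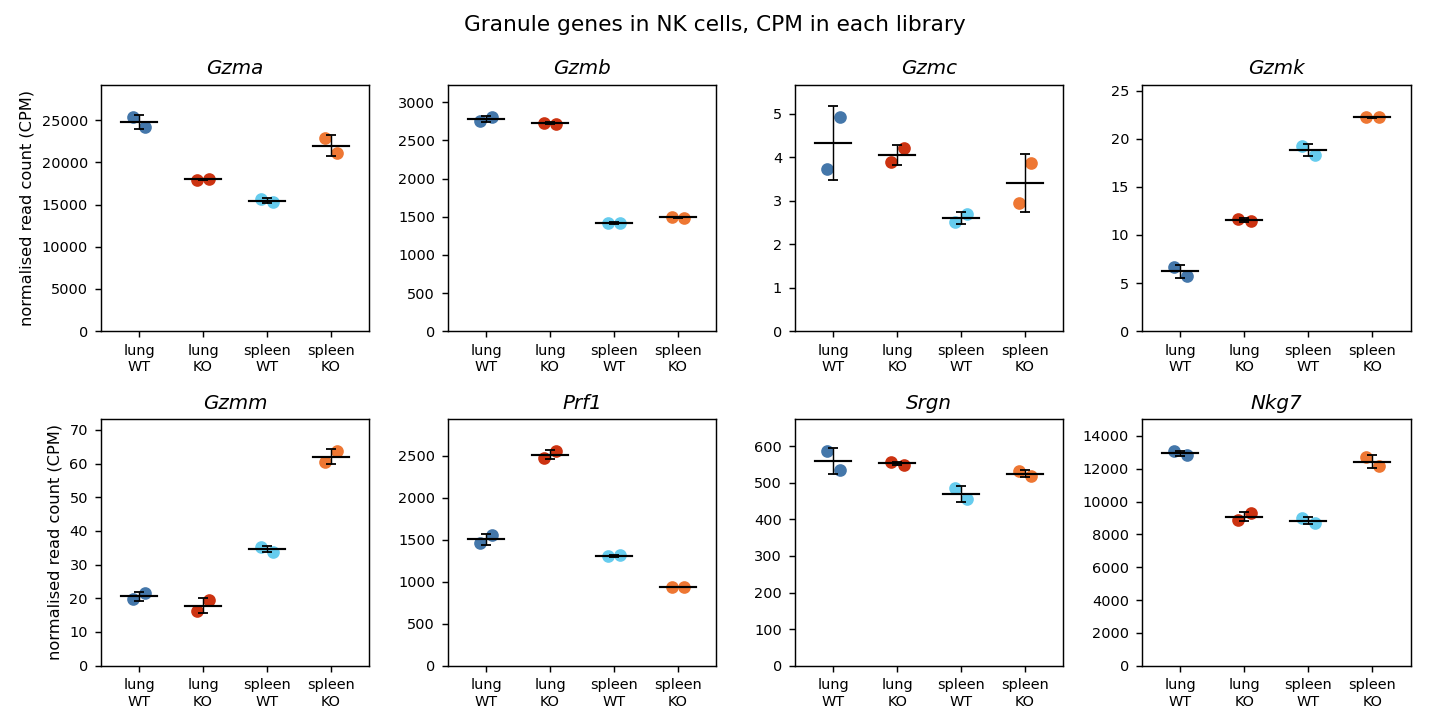
Each panel shows 1 granule gene in NK cells of lung WT, lung KO, spleen WT and spleen KO on the horizontal axis, with its level in CPM on the vertical axis. Points are libraries (n = 2 a group), and the line and bars are the mean and SD. *Gzma* and *Nkg7* are lower in KO in lung and higher in spleen, and *Prf1* shows the reverse, with group means of 1509 and 2515 CPM in lung WT and KO against 1311 and 938 in spleen.

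*Gzma* encodes a granzyme that cleaves after basic residues and is made by resting NK cells. It was at 25399 and 24265 CPM (lung WT), 17961 and 18039 (lung KO), 15694 and 15278 (spleen WT), and 22854 and 21128 (spleen KO). In lung both KO libraries were lower than both WT libraries, in spleen both KO libraries were higher, and the groups of an organ did not overlap. By edgeR's quasi-likelihood test the log2 fold change of KO against WT was -0.46 (SE 0.04, adjusted p = 1.0e-13) in lung, with a ratio of mean CPM of 0.725. In spleen it was 0.51 (SE 0.04, adjusted p = 1.4e-14), with a ratio of 1.42, and the difference between the organs was -0.97 (SE 0.05, adjusted p = 6.7e-19). Bulk RNA does not tell apart a smaller share of cells that express a gene from less of its RNA in each cell, here or below. The size of the *Gzma* effect depended on how gene length and GC content were treated. With the offset for both the change kept its direction but shrank to -0.13 (adjusted p = 1.3e-05) in lung and 0.06 (adjusted p = 0.0235) in spleen, and to -0.19 (adjusted p = 4.4e-06) for the difference. The exon length offset alone gave 0.29 (adjusted p = 2.7e-11) in spleen and -0.63 (adjusted p = 1.9e-17) for the difference. At an assumed coefficient of variation of 0.2 the adjusted p was 0.333 in lung and 0.315 in spleen.

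*Gzmb* encodes the granzyme that cleaves after aspartate and activates caspases. Its level was 2749 and 2807 CPM (lung WT), 2734 and 2713 (lung KO), 1422 and 1413 (spleen WT), and 1495 and 1488 (spleen KO). The KO and WT libraries of each organ lay close together without overlap, and the step between the organs was far larger than that between genotypes. KO against WT gave a log2 fold change of -0.03 (SE 0.03, adjusted p = 0.489) in lung and 0.07 (SE 0.03, adjusted p = 0.0677) in spleen by edgeR's quasi-likelihood test, neither of which passed. The difference between the organs was -0.10 (SE 0.05, adjusted p = 0.0642) by edgeR's quasi-likelihood test. Other settings made these calls: the change in spleen passed with RLE (relative log expression) or upper-quartile factors in place of TMM, without a filter on low counts or without lung WT 1, with values from 0.08 to 0.09 and adjusted p from 0.0337 to 0.0418. The difference passed with DESeq2, with either of those factors or without lung WT 1, with values from -0.13 to -0.12 and adjusted p from 0.0290 to 0.0397. The sign of the *Gzmb* effect, however, turned with the treatment of the libraries. Scaling by library totals gave 0.06 in lung, 0.00 in spleen and 0.06 for the difference, and the offset for GC content 0.01, 0.03 and -0.03, none of which passed. The offset for exon length gave 0.03 in lung and -0.07 in spleen, which did not pass, and 0.10 (adjusted p = 0.0459) for the difference, which did. All these values are small beside the difference of *Gzmb* between the organs. With the offset for GC content and exon length the change was 0.19 (adjusted p = 1.4e-07) in lung, -0.23 (adjusted p = 5.0e-09) in spleen and 0.42 (adjusted p = 2.7e-12) for the difference, and all passed. *Gzmb* thus has no direction of KO effect that holds across these settings.

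*Gzmk*, a granzyme with a specificity like that of *Gzma*, was at 6.71 and 5.70 CPM (lung WT), 11.7 and 11.4 (lung KO), 19.2 and 18.3 (spleen WT), and 22.2 and 22.3 (spleen KO). Those levels rest on 54 and 22 reads in lung WT and on 68 and 581 in spleen KO. The KO libraries were above the WT libraries in both organs without overlap, and all spleen libraries were above all lung libraries. In lung *Gzmk* rose in KO, by 0.85 (SE 0.19, adjusted p = 2.5e-04) on the log2 scale in edgeR's quasi-likelihood test. The change in spleen, 0.25 (SE 0.11, adjusted p = 0.0514) by edgeR's quasi-likelihood test, did not pass, though it lay near the threshold. It passed with edgeR's likelihood ratio test, RLE or upper-quartile factors or without lung WT 1, with values from 0.26 to 0.27 and adjusted p from 0.0393 to 0.0465. It shrank to 0.11 (adjusted p = 0.414) with the offset for exon length, and its sign turned to -0.05 (adjusted p = 0.735) with that for GC content and exon length. The effect in lung exceeded that in spleen by 0.60 (SE 0.22, adjusted p = 0.0199) by edgeR's quasi-likelihood test, a call that DESeq2 did not make (adjusted p = 0.172). It also ended when lung WT 2, lung KO 2 or spleen KO 2 was left out, with adjusted p between 0.0502 and 0.0688. The offsets made the difference larger, at 0.81 (adjusted p = 0.00172) with that for exon length and 1.13 (adjusted p = 2.8e-05) with that for GC content and exon length.

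*Gzmm*, which cleaves after methionine and leucine, was at 19.6 and 21.5 CPM (lung WT), 16.2 and 19.5 (lung KO), 35.2 and 33.9 (spleen WT), and 60.4 and 63.6 (spleen KO). In spleen the KO libraries were well above the WT libraries; in lung they were below by a narrow margin, without overlap. By edgeR's quasi-likelihood test the log2 fold change was -0.16 (SE 0.13, adjusted p = 0.318) in lung, which did not pass, and 0.87 (SE 0.08, adjusted p = 3.1e-11) in spleen, which did. The organs differed by -1.04 (SE 0.16, adjusted p = 5.5e-07) in edgeR's quasi-likelihood test. The value in lung was not stable. It was -0.05 without lung KO 1, -0.32 without lung KO 2 and -0.26 without lung WT 1, and -0.07 with library totals and -0.10 with the offset for exon length, and passed in none of these. With an offset for GC content alone the change in lung was -0.42 (adjusted p = 0.00721) and passed, and with the offset for GC content and exon length it was -0.27 (adjusted p = 0.0897) and did not. *Gzmm* has the highest GC content of the members, at 56.2%. Reads on the gene numbered 158 and 83 in lung WT and 79 and 143 in lung KO.

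*Gzmc* belongs to the group of granzymes encoded next to *Gzmb*. It was barely detected, at 3.73 and 4.92 CPM (lung WT), 3.89 and 4.22 (lung KO), 2.50 and 2.69 (spleen WT), and 2.94 and 3.87 (spleen KO), on 9 to 101 reads a library. Its KO and WT libraries overlapped in lung and did not in spleen, where KO libraries were higher. Neither KO effect passed: the log2 fold change was -0.02 (SE 0.29, adjusted p = 0.980) in lung and 0.51 (SE 0.28, adjusted p = 0.119) in spleen by edgeR's quasi-likelihood test. Both values depended on single libraries. Without 1 library the value in lung ranged from -0.28 (without lung WT 1) to 0.13 (without lung WT 2), and that in spleen fell to 0.16 (adjusted p = 0.857) without spleen KO 2. In spleen it was also smaller with the offset for exon length, at 0.29, and with that for GC content and exon length, at 0.24; in lung the latter gave 0.17. The gene closely resembles *Gzmd*, *Gzme*, *Gzmf*, *Gzmg* and *Gzmn*, and reads that fit several of them were not counted, so that the level of *Gzmc* is a lower limit. Of those 5 relatives none was tested. *Gzmd*, *Gzme*, *Gzmg* and *Gzmn* had 0 reads in all 8 libraries, and *Gzmf* had 2 and 4 reads in lung KO and 0 elsewhere. Since shared reads were left out, 0 reads do not show that these genes are silent.

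*Prf1*, the pore-forming protein without which granzymes do not reach their substrates, was at 1463 and 1556 CPM (lung WT), 2477 and 2554 (lung KO), 1303 and 1320.0 (spleen WT), and 939 and 938 (spleen KO). The lung KO libraries stood highest of all groups, the spleen KO libraries lowest, and the WT groups lay between them. In lung *Prf1* rose in KO by 0.74 (SE 0.04, adjusted p = 2.2e-19) on the log2 scale in edgeR's quasi-likelihood test, a ratio of mean CPM of 1.67. In spleen it fell, with a log2 fold change of -0.48 (SE 0.04, adjusted p = 1.3e-13) by edgeR's quasi-likelihood test and a ratio of 0.715. The difference between the organs, 1.22 (SE 0.05, adjusted p = 1.3e-21) by edgeR's quasi-likelihood test, was the largest among the 8 members in this fit. With the GC offset it was 0.90, less in size than -1.52 for *Gzmm* and -1.30 for *Nkg7*. Its direction, and those within each organ, held in every setting tried. With the offset for GC content and exon length the change was 0.57 (adjusted p = 1.6e-20) in lung and -0.37 (adjusted p = 6.4e-14) in spleen. At an assumed coefficient of variation of 0.2 the adjusted p was 0.0761 in lung and 0.348 in spleen.

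*Srgn*, the granule proteoglycan, was at 586 and 534 CPM (lung WT), 556 and 549.8 (lung KO), 485 and 455 (spleen WT), and 532 and 518 (spleen KO). Over all 4 groups together it varied least of the abundant members, though the KO effect in spleen was smaller for *Gzmb* (0.07 against 0.16). The lung KO libraries of *Srgn* lay within the range of lung WT, and in spleen both KO libraries were slightly above both WT libraries. The log2 fold change was -0.03 (SE 0.04, adjusted p = 0.622) in lung, which did not pass, and 0.16 (SE 0.04, adjusted p = 0.00165) in spleen, which passed in edgeR's quasi-likelihood test. The difference between the organs was -0.19 (SE 0.06, adjusted p = 0.00758) by edgeR's quasi-likelihood test. None of the *Srgn* directions held throughout: with the offset for GC content and exon length the values were 0.16 (adjusted p = 3.1e-04) in lung, -0.09 (adjusted p = 0.0303) in spleen and 0.25 (adjusted p = 5.9e-05) for the difference. The call in spleen ended with library totals, at 0.09 (adjusted p = 0.0624), with the GC offset, at 0.06 (adjusted p = 0.218), and with the GC offset and replicate block, at 0.07 (adjusted p = 0.0949). That for the difference ended with library totals, at -0.03 (adjusted p = 0.731), and turned to 0.02 (adjusted p = 0.762) with the GC offset. In lung the sign turned with library totals (0.07) and the GC offset (0.08), and with the GC offset and replicate block the value was 0.09 (adjusted p = 0.0245) and passed. Single libraries mattered as well. The call in spleen also ended without spleen WT 2 (adjusted p = 0.107), and that for the difference ended without lung WT 1 (adjusted p = 0.104) or spleen WT 2 (adjusted p = 0.0932), and in lung the value was 0.04 without lung WT 1. Before any offset, *Srgn* showed no change of the size seen for *Gzma*, *Nkg7* or *Prf1*.

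*Nkg7*, whose protein is a tetraspan component of the granule membrane, was at 13056 and 12811 CPM (lung WT), 8889 and 9285 (lung KO), 9001 and 8674 (spleen WT), and 12719 and 12165 (spleen KO). As for *Gzma*, the KO libraries were the lower in lung and the higher in spleen, again without overlap. By edgeR's quasi-likelihood test the log2 fold change was -0.51 (SE 0.03, adjusted p = 3.4e-15) in lung and 0.49 (SE 0.03, adjusted p = 1.1e-14) in spleen. The ratio of mean CPM was 0.703 in lung and 1.41 in spleen, and the organs differed by -1.0 (SE 0.05, adjusted p = 1.0e-19) in edgeR's quasi-likelihood test. The change kept its direction but was smaller with the offset for GC content and exon length, at -0.43 (adjusted p = 4.8e-19) in lung, 0.30 (adjusted p = 2.3e-14) in spleen and -0.73 (adjusted p = 3.1e-22) for the difference. For the exon length offset alone it was -0.37 (adjusted p = 8.6e-15) in lung, 0.26 (adjusted p = 3.1e-10) in spleen and -0.63 (adjusted p = 1.2e-17) for the difference, and with that for GC content alone it was larger, at -0.67, 0.63 and -1.30. The size of the *Nkg7* effect thus also depended on this treatment. At an assumed coefficient of variation of 0.2 the adjusted p was 0.274 in lung and 0.332 in spleen.

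**Figure D2:**
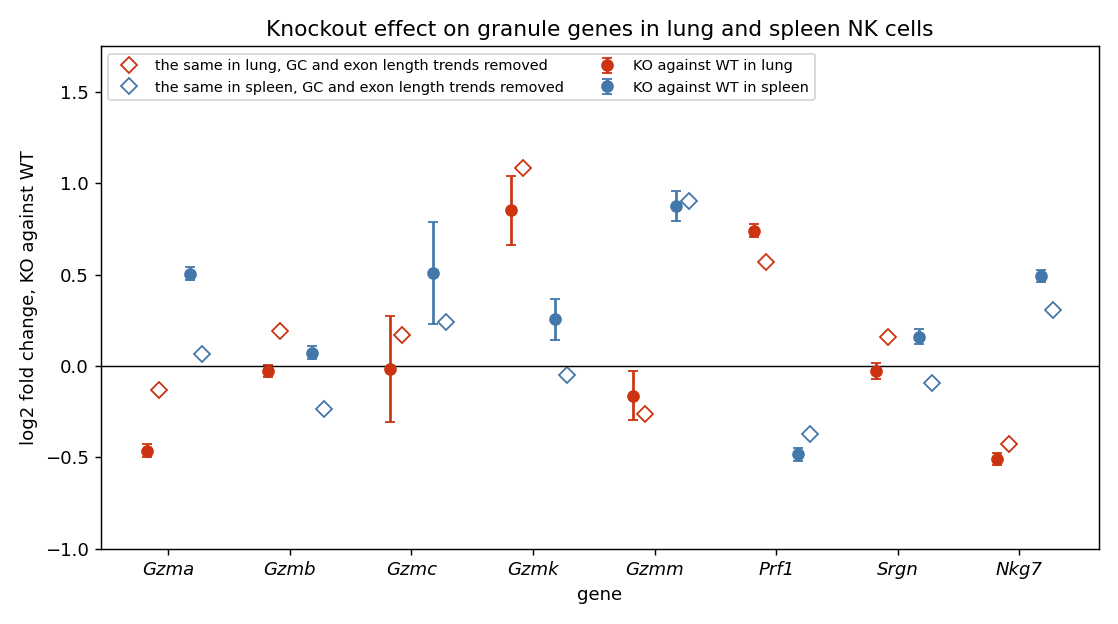
The log2 fold change of KO against WT (vertical axis) is drawn for each of the 8 granule genes (horizontal axis) in lung (red) and spleen (blue); filled points with bars are the estimate ± SE, and open diamonds the value with the offset for GC content and exon length. The organs part in opposite directions for *Gzma*, *Prf1* and *Nkg7*, and the diamonds of *Gzma* lie near 0, at -0.13 in lung and 0.06 in spleen.

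The offsets matter because the KO effect ran with gene properties across the transcriptome. Over 12501 genes of known GC content, Spearman's correlation of the log2 fold change with GC content was 0.289 in lung and -0.272 in spleen, and with exon length 0.0401 and -0.132. These are descriptions over genes that share the same libraries. Among the members, *Gzma* has a GC content of 44.1% over 1006 exonic bases, *Prf1* 53.6% over 2584 and *Nkg7* 53.1% over 914. How far these properties account for the changes of single members was not tested. Scaling by library totals alone, without TMM, moved the median of all genes to 0.11 in lung, -0.06 in spleen, 0.19 for the interaction and -0.12 for lung against spleen in WT. Against that shift the lung change was -0.37 for *Gzma*, 0.06 for *Gzmb*, 0.83 for *Prf1*, 0.07 for *Srgn* and -0.42 for *Nkg7*. The same scaling raised the share of called genes that were higher from 52.5% to 63.3% in lung and from 52.9% to 63.5% for the interaction. It lowered that share from 49.3% to 41.2% in spleen and from 48.6% to 36.9% for lung against spleen in WT.

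Ratios of read counts within a library do not depend on how libraries are scaled, and *Gzmb* was taken as the reference. The log2 ratio of *Gzma* to *Gzmb* reads was 3.21 and 3.11 (lung WT), 2.72 and 2.73 (lung KO), 3.46 and 3.43 (spleen WT), and 3.93 and 3.83 (spleen KO). Relative to *Gzmb*, *Gzma* was lower in KO in lung and higher in spleen in every library. The log2 ratio of *Prf1* to *Gzmb* reads was -0.91 and -0.85 (lung WT), -0.14 and -0.09 (lung KO), -0.13 and -0.10 (spleen WT), and -0.67 and -0.67 (spleen KO). Lung KO and spleen WT libraries were nearly equal in this ratio, spleen KO libraries lay lower, and lung WT libraries lowest. For *Nkg7* the log2 ratio was 2.25 and 2.19 (lung WT), 1.70 and 1.77 (lung KO), 2.66 and 2.62 (spleen WT), and 3.09 and 3.03 (spleen KO), the same pattern as *Gzma*. The difference of mean log2 ratios between KO and WT was 0.92 in lung and 0.17 in spleen for *Gzmk* and -0.18 in lung and 0.77 in spleen for *Gzmm*, where the lung groups of *Gzmm* overlapped. For *Srgn* it was 0.01 in lung and 0.09 in spleen, and for *Gzmc* -0.05 in lung and 0.30 in spleen, again with overlap in lung for both. The composition of the granule transcripts, read from ratios within libraries, thus differed between genotypes, in opposite senses in the 2 organs for *Gzma*, *Nkg7* and *Prf1*. These ratios are not corrected for GC content and exon length. With the offset for both, *Gzmb* itself changed by 0.19 in lung and -0.23 in spleen, and *Prf1* by 0.57 and -0.37. *Prf1* thus moved less relative to *Gzmb* under that offset than the ratios show.

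The organs themselves also differed, and these comparisons share their libraries with those above. In WT mice, lung NK cells were set against spleen NK cells, and 7 of 8 members passed the test at an adjusted p below 0.05, beside 57.0% of all tested genes. Higher in lung were 5 (*Gzma*, *Gzmb*, *Prf1*, *Srgn* and *Nkg7*), where 27.7% of genes were, and lower were 2 (*Gzmk* and *Gzmm*), where 29.3% were. Here the median log2 fold change was 0.41 over the 8 members and -0.01 over all tested genes. With the offset for GC content and exon length it was 0.44 over the members and 0.03 over all genes, with 5 members called as higher (all genes 30.0%) and 2 as lower (26.8%). The 5 most abundant members were thus those higher in lung, and the 2 granzymes lower there are rare in both organs. By edgeR's quasi-likelihood test the log2 fold change was 0.97 (SE 0.03, adjusted p = 3.2e-24) for *Gzmb*. For *Gzma* it was 0.68 (SE 0.04, adjusted p = 1.2e-18) and for *Nkg7* 0.55 (SE 0.03, adjusted p = 2.1e-16) in edgeR's quasi-likelihood test. WT lung NK cells thus held more RNA of the main granzymes, while *Gzmk*, at -1.55 (SE 0.17, adjusted p = 8.0e-10), and *Gzmm*, at -0.76 (SE 0.12, adjusted p = 6.6e-07), were lower there by edgeR's quasi-likelihood test. *Prf1* differed by 0.20 (SE 0.04, adjusted p = 1.4e-05) in edgeR's quasi-likelihood test, by 0.10 (adjusted p = 0.0295) with library totals, and by 0.36 with the GC offset, 0.32 with that for exon length and 0.39 with both. *Srgn* differed by 0.27 (SE 0.04, adjusted p = 2.2e-06) in edgeR's quasi-likelihood test, by 0.16 (adjusted p = 0.00134) with library totals, and by 0.18 with the GC offset. Both genes thus kept their direction with a size that depended on the setting. *Gzmc*, at 0.65 (SE 0.32, adjusted p = 0.0775) by edgeR's quasi-likelihood test, did not pass, but did at 0.73 (adjusted p = 0.0470) with the GC offset. At the assumed coefficient of variation only *Gzmb* and *Gzmk* passed, with an adjusted p of 0.00823 and 1.3e-04.

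In KO mice, lung against spleen gave another picture: 6 of 8 members passed the test at an adjusted p below 0.05, beside 65.6% of all tested genes. Only 2 members were higher in lung (*Gzmb* and *Prf1*), beside 33.9% of genes, and 4 were lower (*Gzma*, *Gzmk*, *Gzmm* and *Nkg7*), beside 31.7%. For the KO groups the median log2 fold change was -0.10 over the 8 members and 0.02 over all tested genes. This too changed sign with the offset for GC content and exon length, to 0.37 over the members and 0.00 over all genes, with 4 members called as higher (all genes 31.4%) and 3 as lower (30.7%). Without that offset, lung NK cells of KO mice were thus richer than spleen NK cells in RNA of perforin and *Gzmb*, but not of *Gzma* or *Nkg7*. *Srgn*, at 0.08 (SE 0.04, adjusted p = 0.0899) by edgeR's quasi-likelihood test, did not pass, but did at 0.44 (adjusted p = 3.5e-14) with the offset for GC content and exon length. It also passed with library totals (0.14), with the offsets for GC content (0.21) or exon length (0.15), with at least 10 counts in every library (0.10), in a fit of the 4 libraries (0.08) and without lung WT 2 (0.09). *Prf1* showed the largest excess, 1.42 (SE 0.04, adjusted p = 4.4e-29) by edgeR's quasi-likelihood test. *Gzmb* kept nearly the organ difference it had in WT, at 0.87 (SE 0.03, adjusted p = 4.7e-23) by edgeR's quasi-likelihood test, and stood at 1.30 with that offset. The order of *Gzma* in the organs was the reverse of that in WT, though not in every setting. It was lower in lung, at -0.29 (SE 0.04, adjusted p = 5.3e-09) by edgeR's quasi-likelihood test, but its sign turned to 0.30 (adjusted p = 2.0e-14) with the offset for GC content and exon length. The GC offset alone gave -0.19 (adjusted p = 4.1e-06), and that for exon length 0.03 (adjusted p = 0.463), which did not pass. *Nkg7* was also lower, at -0.45 (SE 0.03, adjusted p = 2.7e-14) by edgeR's quasi-likelihood test, and at -0.16 (adjusted p = 7.0e-08) with the offset, or -0.12 (adjusted p = 3.1e-04) with that for exon length alone. As in WT, *Gzmm* and *Gzmk* were lower in lung than in spleen: *Gzmm* was at -1.80 (SE 0.10, adjusted p = 1.2e-18), and *Gzmk* at -0.95 (SE 0.13, adjusted p = 3.7e-08), by edgeR's quasi-likelihood test, the latter moving to -0.52 with the offset. These and *Gzmb* and *Prf1* also passed at the assumed coefficient of variation, with adjusted p from 4.5e-07 for *Gzmm* to 0.0253 for *Gzmk*.

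The proteins of the granule are cut, sorted and held there by other gene products, of which 11 were listed and all tested. For these and the following lists, the changes given for named genes are log2 fold changes that passed edgeR's quasi-likelihood test unless stated otherwise, and the offsets for GC content and exon length were not applied. In lung KO 5 of 11 passed as higher and 1 as lower (all genes 29.2% and 26.4%), with a median log2 fold change of 0.13 against 0.02 over all genes, and in spleen KO 4 of 11 passed as higher and 3 as lower (all genes 28.2% and 28.9%), with a median of 0.09 against 0.00 over all genes. *Ctsc*, which encodes the protease that activates granzymes, had the highest mean CPM of them over the 8 libraries, at 1179.9 and 1159.8 CPM (lung WT), 1150.3 and 1113 (lung KO), 1088 and 1121 (spleen WT), and 1076 and 1110.1 (spleen KO), and passed in neither organ. *Lamp1*, which encodes a glycoprotein of the granule membrane, was at 146 and 139 CPM (lung WT), 214 and 191 (lung KO), 212 and 204 (spleen WT), and 138 and 144 (spleen KO). Its KO effects had the directions of those of *Prf1*, with KO libraries above WT in lung (0.49) and below in spleen (-0.54). In WT, however, *Lamp1* was lower in lung than in spleen (-0.53), while *Prf1* was higher in lung (0.20). *Fasl*, a death ligand stored in these granules, was at 1463 and 1447 CPM (lung WT), 1148 and 1167 (lung KO), 646 and 682 (spleen WT), and 879 and 885 (spleen KO). Its changes, -0.33 in lung and 0.41 in spleen, had the directions of *Gzma* and *Nkg7*. *Ctsh*, a protease that also activates granzymes, had 0 reads in lung WT and stood at 1.64 and 1.90 CPM in lung KO, so no fold change is given. For the interaction 4 of 11 passed as higher and 2 as lower (all genes 32.5% and 29.0%), with a median of 0.00 against 0.03 over all genes. For lung against spleen, 4 of 11 passed as higher and 5 as lower (all genes 27.7% and 29.3%) in WT, with a median of 0.08 against -0.01 over all genes, and in KO 7 of 11 passed as higher and 1 as lower (all genes 33.9% and 31.7%), with a median of 0.18 against 0.02 over all genes.

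Serpins in the cytosol protect NK cells from their own granzymes, and 4 of them were listed and tested. In lung KO 3 of 4 passed as higher and 0 as lower (all genes 29.2% and 26.4%), with a median of 0.16 against 0.02 over all genes, and in spleen KO 2 of 4 passed as higher and 0 as lower (all genes 28.2% and 28.9%), with a median of 0.11 against 0.00 over all genes. *Serpinb9*, which inhibits granzyme B, was at 1459 and 1410.0 CPM (lung WT), 1696 and 1700.2 (lung KO), 871 and 901 (spleen WT), and 999 and 1006 (spleen KO). *Serpinb9b*, which inhibits granzyme M, was at 913 and 910.3 CPM (lung WT), 975 and 963 (lung KO), 506 and 509 (spleen WT), and 502 and 534 (spleen KO). Both were higher in every lung library than in any spleen library, the same order as *Gzmb*. The log2 fold change of lung against spleen was 0.69 in WT and 0.76 in KO for *Serpinb9*. *Serpinb6b* was higher in KO in both organs, by 0.28 in lung and 0.37 in spleen, and *Serpinb6a* did not pass in either (-0.11 and -0.07). For the interaction 0 of 4 passed as higher and 0 as lower (all genes 32.5% and 29.0%), with a median of 0.01 against 0.03 over all genes, so a difference between the organs was not shown. For lung against spleen, 3 of 4 passed as higher and 0 as lower (all genes 27.7% and 29.3%) in WT, with a median of 0.49 against -0.01 over all genes, and in KO 3 of 4 passed as higher and 0 as lower (all genes 33.9% and 31.7%), with a median of 0.48 against 0.02 over all genes.

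Enzymes that build the chondroitin sulfate chains of serglycin were listed as 13 genes, of which 11 were tested. In lung KO 4 of 11 passed as higher and 2 as lower (all genes 29.2% and 26.4%), with a median of 0.28 against 0.02 over all genes, while in spleen KO 1 of 11 passed as higher and 6 as lower (all genes 28.2% and 28.9%), with a median of -0.31 against 0.00 over all genes. *Chsy1*, which extends the chains, was at 1450.3 and 1369.6 CPM (lung WT), 977 and 975 (lung KO), 929 and 960.2 (spleen WT), and 1279 and 1303 (spleen KO). Its log2 fold change was -0.53 in lung and 0.45 in spleen. *Chst11* had the same signs, with -0.31 in lung and 0.20 in spleen, the latter of which did not pass. The sulfotransferase gene *Chst12* had the opposite signs, 0.28 in lung and -0.36 in spleen. For the interaction 6 of 11 passed as higher and 2 as lower (all genes 32.5% and 29.0%), with a median of 0.62 against 0.03 over all genes. For lung against spleen, 4 of 11 passed as higher and 4 as lower (all genes 27.7% and 29.3%) in WT, with a median of -0.10 against -0.01 over all genes, and in KO 5 of 11 passed as higher and 1 as lower (all genes 33.9% and 31.7%), with a median of 0.19 against 0.02 over all genes.

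Granules travel along microtubules and fuse with the cell membrane, and of 18 genes listed for these steps 15 were tested. In lung KO 7 of 15 passed as higher and 3 as lower (all genes 29.2% and 26.4%), with a median of 0.09 against 0.02 over all genes, and in spleen KO 5 of 15 passed as higher and 7 as lower (all genes 28.2% and 28.9%), with a median of 0.00 against 0.00 over all genes. *Stx11* encodes a syntaxin required for granule fusion, and was at 61.2 and 48.7 CPM (lung WT), 108 and 101 (lung KO), 69.9 and 72.2 (spleen WT), and 41.8 and 41.7 (spleen KO). *Stxbp2*, whose protein binds that syntaxin, was at 69.1 and 79.0 CPM (lung WT), 114 and 103 (lung KO), 117 and 114 (spleen WT), and 59.4 and 58.0 (spleen KO). Like *Prf1*, both were higher in KO in lung and lower in spleen, with differences between the organs of 1.65 for *Stx11* and 1.55 for *Stxbp2* on the log2 scale. The vesicle gene *Vamp8* ran the other way, with -0.42 in lung and 0.67 in spleen. For the interaction 8 of 15 passed as higher and 5 as lower (all genes 32.5% and 29.0%), with a median of 0.25 against 0.03 over all genes. For lung against spleen, 5 of 15 passed as higher and 5 as lower (all genes 27.7% and 29.3%) in WT, with a median of -0.07 against -0.01 over all genes, and in KO 9 of 15 passed as higher and 4 as lower (all genes 33.9% and 31.7%), with a median of 0.25 against 0.02 over all genes.

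Of the transcription factors that act on granule genes, 9 were listed and all tested. In lung KO 4 of 9 passed as higher and 3 as lower (all genes 29.2% and 26.4%), with a median of 0.02 against 0.02 over all genes, and in spleen KO 2 of 9 passed as higher and 3 as lower (all genes 28.2% and 28.9%), with a median of -0.02 against 0.00 over all genes. *Tbx21*, which encodes T-bet, was at 216 and 221 CPM (lung WT), 478 and 480.1 (lung KO), 341 and 331 (spleen WT), and 149.8 and 147 (spleen KO). Lung KO was the highest of its groups and spleen KO the lowest, as for *Prf1*. The WT groups stood otherwise: *Tbx21* was lower in lung WT than in spleen WT, while *Prf1* was higher there (0.20). The KO effect of *Tbx21* differed between the organs by 2.31 (SE 0.06, adjusted p = 3.4e-27) in edgeR's quasi-likelihood test. *Prdm1*, which encodes Blimp-1, was at 31.6 and 33.7 CPM (lung WT), 19.0 and 16.9 (lung KO), 15.7 and 15.5 (spleen WT), and 23.8 and 22.7 (spleen KO). It was lower in KO in lung (-0.86) and higher in spleen (0.55), the directions of *Gzma* and *Nkg7*. *Eomes* differed little, with 0.02 in lung, which did not pass, and 0.15 in spleen. Whether these factors bear on the granule genes here was not tested. For the interaction 3 of 9 passed as higher and 2 as lower (all genes 32.5% and 29.0%), with a median of 0.04 against 0.03 over all genes. For lung against spleen, 3 of 9 passed as higher and 4 as lower (all genes 27.7% and 29.3%) in WT, with a median of -0.04 against -0.01 over all genes, and in KO 3 of 9 passed as higher and 3 as lower (all genes 33.9% and 31.7%), with a median of 0.00 against 0.02 over all genes.

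The pattern of a member over the 8 libraries was also compared with that of 5098 other genes of sufficient level, by Pearson's correlation of log2 CPM. The 8 points form 4 groups of 2 libraries and share depth and base composition within libraries, so the values are descriptions. Most like *Gzma* were *mt-Co1*, *Manf*, *Srp72*, *Emc2* and *Akap9*, with r between 0.987 and 0.993. Most like *Gzmb* were *Rgs1*, *Lrrfip1*, *Serpinb9b*, *Gbp4* and *Ccl4*, with r from 0.991 to 0.994, which include its inhibitor-family gene *Serpinb9b*. *Prf1* was most like *Metrnl*, *Hmha1*, *Sh2d2a*, *Vps37b* and *Itgal*, with r from 0.990 to 0.997. Among the members, r was 0.954 between *Gzma* and *Nkg7*, -0.516 between *Prf1* and *Nkg7*, and -0.249 between *Gzma* and *Prf1* (n = 8 libraries). It was 0.761 between *Gzmb* and *Prf1* and -0.899 between *Gzmm* and *Prf1*. Without an offset, the family thus held at least 2 patterns, that of *Gzma* with *Nkg7* and that of *Prf1*. With the offset for GC content and exon length, *Gzma* and *Nkg7* kept the shared directions of their KO effects in each organ. They parted for lung against spleen in KO, at 0.30 for *Gzma* and -0.16 for *Nkg7*.

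Several measures of the cells and of the RNA moved with the groups. The summed level of 6 NK markers, led by *Klrb1c* and with none at 0, was 12869 and 12596 CPM (lung WT), 11012 and 10843 (lung KO), 11469.8 and 11623 (spleen WT), and 14041 and 14021 (spleen KO). It was lower in KO in lung and higher in KO in spleen, as were *Gzma* and *Nkg7*: 0 of 6 passed as higher and 5 as lower (all genes 29.2% and 26.4%) in lung KO, with a median of -0.21 against 0.02 over all genes, and 6 of 6 passed as higher and 0 as lower (all genes 28.2% and 28.9%) in spleen KO, with a median of 0.26 against 0.00 over all genes. The mean share of mitochondrial genes in the reads on genes (± SD, n = 2) was 1.41 ± 0.0661% (lung WT), 0.939 ± 0.00917% (lung KO), 0.794 ± 0.00290% (spleen WT) and 0.993 ± 0.0152% (spleen KO). The groups thus stood in the same order for the mitochondrial share as for *Gzma*. Of the uniquely aligned reads, a mean of 55.0% (lung WT), 53.9% (lung KO), 52.7% (spleen WT) and 53.8% (spleen KO) lay on no gene. Alignments that were not unique made up 30.6%, 29.7%, 31.0% and 33.1% of all alignments, for the groups in that order. Both shares were lower in KO in lung and higher in KO in spleen, without overlap of libraries. The part of these measures in the results was not tested.

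Granule genes also vary with NK cell maturity. For each list below, the marker said to lead it has the highest mean CPM over the 8 libraries, with no regard to gene length. Markers of mature NK cells, led by *Cma1*, summed to 3794 and 3729 CPM (lung WT), 3228 and 3278 (lung KO), 2464 and 2422 (spleen WT), and 2635 and 2614 (spleen KO). In lung KO 3 of 6 passed as higher and 3 as lower (all genes 29.2% and 26.4%), with a median of -0.01 against 0.02 over all genes, and in spleen KO 1 of 6 passed as higher and 2 as lower (all genes 28.2% and 28.9%), with a median of 0.00 against 0.00 over all genes. Mature markers thus moved in both directions. Those of less mature NK cells, led by *Emb*, summed to 303 and 311 CPM (lung WT), 404 and 425 (lung KO), 906 and 850.2 (spleen WT), and 920.3 and 925 (spleen KO). In lung KO 4 of 4 passed as higher and 0 as lower (all genes 29.2% and 26.4%), with a median of 0.39 against 0.02 over all genes, and in spleen KO 3 of 4 passed as higher and 1 as lower (all genes 28.2% and 28.9%), with a median of 0.20 against 0.00 over all genes. Markers of less mature cells were thus higher in spleen than in lung in every library, as *Gzmk* and *Gzmm* were. Markers of type 1 innate lymphoid cells or resident cells, led by *Il7r*, summed to 137 and 131 CPM (lung WT), 82.7 and 81.9 (lung KO), 179.9 and 197 (spleen WT), and 160.3 and 173 (spleen KO). In lung KO 0 of 8 passed as higher and 4 as lower (all genes 29.2% and 26.4%), with a median of -0.55 against 0.02 over all genes, and in spleen KO 2 of 8 passed as higher and 2 as lower (all genes 28.2% and 28.9%), with a median of -0.20 against 0.00 over all genes. Their part in the granule results was not tested.

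Markers of other cell types were present as well, and their part in the results was not tested either. T cell markers, led by *Trdc*, summed to 747 and 716 CPM (lung WT), 589 and 592 (lung KO), 899 and 903 (spleen WT), and 1065 and 1009 (spleen KO). In lung KO 0 of 7 passed as higher and 4 as lower (all genes 29.2% and 26.4%), with a median of -0.29 against 0.02 over all genes, and in spleen KO 3 of 7 passed as higher and 1 as lower (all genes 28.2% and 28.9%), with a median of 0.11 against 0.00 over all genes. Their sum was lower in KO in lung and higher in spleen, as was *Gzma*. Much of it came from the receptor constant-region genes *Trdc* and *Trbc1*, with means of 307 and 262 CPM in lung WT and 346 and 265 in spleen WT. *Cd8a*, *Cd8b1* and *Cd4* had at most 9, 2 and 7 reads in a library and were not tested. *Trbc1* and these genes were named after their values were seen. The sum by itself thus does not show that T cells were present. The marker that passed as lower in spleen KO was *Cd3e* (-1.60), named after its values were seen. Its means were 32.2 CPM in spleen WT and 9.33 in spleen KO. B cell markers, led by *Cd79b*, summed to 6.59 and 5.18 CPM (lung WT), 6.96 and 8.16 (lung KO), 38.7 and 44.3 (spleen WT), and 38.2 and 40.2 (spleen KO). These were low throughout, and higher in spleen than in lung. Myeloid markers, led by *Lyz2* with *Adgre1*, *S100a8* and *S100a9* at 0 reads in all libraries, summed to 17.4 and 22.5 CPM (lung WT), 28.7 and 30.5 (lung KO), 5.25 and 7.71 (spleen WT), and 6.20 and 8.50 (spleen KO). Markers of mast cells and basophils, led by *Cpa3* with *Ms4a2*, *Fcer1a* and *Tpsb2* at 0 reads, summed to 1.99 and 1.30 CPM (lung WT), 4.71 and 1.90 (lung KO), 2.0 and 2.1 (spleen WT), and 4.57 and 3.29 (spleen KO). Both stayed low in every library, the former higher in lung. Markers of lung epithelium and endothelium, led by *Sftpc*, summed to 316 and 308 CPM (lung WT), 408 and 445 (lung KO), 65.2 and 75.4 (spleen WT), and 67.2 and 68.6 (spleen KO). Erythroid markers, led by *Hbb-bs*, summed to 21.4 and 25.9 CPM (lung WT), 44.4 and 50.3 (lung KO), 0.749 and 0.818 (spleen WT), and 0.979 and 0.689 (spleen KO). Of the erythroid markers 3 of 3 passed as higher and 0 as lower (all genes 29.2% and 26.4%) in lung KO, and none passed in spleen KO. The lung tissue markers did not move as one: 3 of 5 passed as higher and 1 as lower (all genes 29.2% and 26.4%) in lung KO. *Sftpc* rose there (0.80), while *Scgb1a1*, named after its values were seen, fell (-0.46), and both had 0 reads in spleen. The sum in spleen came almost wholly from *Pecam1*, also named after its values were seen, with means of 69.9 CPM in spleen WT and 59.1 in lung WT.

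The members lie on 4 chromosomes. In GRCm38, *Gzma* and *Gzmk* are neighbours on chromosome 13, 70626 bases apart on the same strand, and *Gzmc* and *Gzmb* lie 24181 bases apart on chromosome 14. In lung KO *Gzma* fell and *Gzmk* rose, while in spleen KO both were higher, *Gzma* past the test and *Gzmk* not. *Gzmb* and *Gzmc* passed for KO against WT in neither organ. *Prf1*, *Srgn* and *Gzmm* are all on chromosome 10 but at least 1189152 bases apart, and *Nkg7* is on chromosome 7. No exon of a member overlaps an exon of another gene.

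RefSeq (build GRCm38.p6) gives 10 promoters for the 8 members, with 2 each for *Srgn* and *Gzmm*, and the 250 bases before each start were searched on both strands for short motifs. TGTGGT or ACCACA, the core that RUNX proteins bind, occurred in a promoter of 7 of 8 members, all but *Gzmk*, and of 15.9% of 27025 genes. Counted by promoter, it was in 7 of the 10 and in 14.0% of 32851. GGTGTG or CACACC, a core of T-box factors, occurred in a promoter of *Gzmk*, *Gzmm* and *Nkg7* (3 of 8 members) and of 18.3% of genes. AGGAAG or CTTCCT, a core of ETS factors, occurred for *Gzmc*, *Gzmm*, *Prf1* and *Nkg7* (4 of 8) and for 32.3% of genes. Matches of different motifs can overlap, and none of the motifs contains another. TGANTCA, bound by AP-1, was found for 1 of 8 members, *Gzmb*, and for 7.82% of genes. TTCNNNGAA, bound by STAT factors, was found for *Gzmm* and *Nkg7* (2 of 8) and for 8.13% of genes, and TGACGTCA, the cAMP response element, for *Gzmc* (1 of 8) and for 1.77% of genes. The KO effects of *Gzma* and *Nkg7* shared their directions, those of *Prf1* were opposite, and those of *Gzmb* did not pass in either organ without an offset. Stretches of the promoters of these 4 genes are shown 5′ to 3′ with the RUNX core in capitals. They are *Gzma* at chr13:113100982-113101231 (minus strand), *Nkg7* at chr7:43436888-43437072 (plus strand), *Prf1* at chr10:61297586-61297832 (plus strand) and *Gzmb* at chr14:56262335-56262584 (minus strand). Bases inside the annotated gene are left out, so that *Nkg7* is shown with 185 and *Prf1* with 247 of the 250 bases searched, and the T-box and ETS matches of *Nkg7* lie beyond its printed stretch. All 4 hold the core, and a match is a description of letters and not a measured binding site.
Gzma: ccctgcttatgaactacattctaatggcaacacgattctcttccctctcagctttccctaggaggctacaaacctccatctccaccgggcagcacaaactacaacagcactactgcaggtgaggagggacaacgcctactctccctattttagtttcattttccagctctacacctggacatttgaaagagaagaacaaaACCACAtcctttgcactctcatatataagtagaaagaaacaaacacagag
Nkg7: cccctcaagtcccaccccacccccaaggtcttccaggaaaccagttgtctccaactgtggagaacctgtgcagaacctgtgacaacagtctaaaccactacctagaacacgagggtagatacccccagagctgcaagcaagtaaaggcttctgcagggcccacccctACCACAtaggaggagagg
Prf1: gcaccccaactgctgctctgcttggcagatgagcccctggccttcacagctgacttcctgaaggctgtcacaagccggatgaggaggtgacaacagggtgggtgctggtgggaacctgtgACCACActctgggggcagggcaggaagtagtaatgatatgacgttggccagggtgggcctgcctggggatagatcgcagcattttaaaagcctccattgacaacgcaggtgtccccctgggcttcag
Gzmb: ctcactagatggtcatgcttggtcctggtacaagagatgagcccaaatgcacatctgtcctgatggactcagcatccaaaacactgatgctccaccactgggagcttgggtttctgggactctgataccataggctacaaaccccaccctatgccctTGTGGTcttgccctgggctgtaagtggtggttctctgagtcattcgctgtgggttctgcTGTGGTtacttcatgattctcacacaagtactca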

How the data were processed

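The deposited files hold, for 8 RNA-seq libraries of sorted NK cells, raw counts per gene symbol, which the authors obtained by aligning reads to mm10 with HISAT2 2.1.0 and counting with HTSeq, on whose version the sources differ; strand setting and annotation are not given in the sources used here. Groups were read from the sample titles. Of the uniquely aligned reads, 44.3 to 46.6% lay on 1 gene, 52.7 to 55.0% on none and 0.686 to 0.768% on several. Reads on genes numbered 8444054, 3992951, 4783978, 7196662, 3882458, 8299635, 3132963 and 26482366, in the order lung WT, lung KO, spleen WT and spleen KO with 2 libraries each.

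With R 4.3.3, limma 3.58.1 and edgeR 4.0.16, counts were fitted as follows: filterByExpr over the 4 groups, TMM, 1 mean for each group over all 8 libraries, quasi-likelihood F tests, and Benjamini-Hochberg adjustment over the 12595 genes tested with a threshold of 0.05. SE is the absolute log2 fold change over the square root of F. GC content and exon lengths came from GENCODE M21 (GRCm38), where 46394 of 48321 symbols matched by name, 584 by synonym and 1343 not; GC content was known for 12501 tested genes (99.3%). Code was tested on simulated data.

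The members and lists were chosen with earlier results of these data known. Named are the members, *Ccl5*, NK markers, the most abundant marker of each other cell type, and, from lists of over 6 genes, the most abundant gene and up to 3 in each direction by smallest p without overlap of libraries; shorter lists are given whole, and of the genes so eligible examples are printed. Alternatives were edgeR's likelihood ratio test, DESeq2 1.42.0, RLE and upper-quartile factors, library totals, other filters, a threshold of 0.001, fits of 4 libraries, a replicate block, an offset for GC content, leaving out each library, and an assumed coefficient of variation of 0.2. Offsets for exon length, alone and with GC content, were added after seeing the data.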

Additional observations from a re-analysis of the deposited data

Results flagged for a closer look

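For 6 members the KO effect differed between lung and spleen by the interaction test (lung minus spleen, log2): -0.97 for *Gzma*, 0.60 for *Gzmk*, -1.04 for *Gzmm*, 1.22 for *Prf1*, -0.19 for *Srgn* and -1.0 for *Nkg7*. With the offset for GC content and exon length the value of *Srgn* turned to 0.25 and that of *Gzma* shrank to -0.19. The *Gzmk* call ended with DESeq2, and the *Srgn* call with library totals and with the GC offset. Both calls also ended when certain single libraries were left out. At the assumed coefficient of variation of 0.2 only *Prf1* passed. The rule on outlying libraries does not apply with 2 libraries a group. The cause was not tested.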

How the results depend on the processing

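Over 23 settings for 40 log2 fold changes, 514 of the values from alternatives kept their direction and their side of the threshold, whatever their size, 29 no longer passed, 20 newly passed and 24 reversed, and with a library left out 307, 6, 4 and 3. Genes called in lung, spleen, interaction, lung against spleen in WT and in KO numbered 1557, 1144, 2017, 2011, 2316 with the assumed coefficient of variation of 0.2, where 0, 0, 1, 2, 4 members passed. At a threshold of 0.001 the first 4 numbered 4131, 4388, 5106, 4426, and with DESeq2 lung and spleen numbered 4507 and 4165. Without 1 library, genes called in spleen ranged from 4448 to 7493. With a replicate block they were 6977, 7185, 7764, 7135, 8200, and 4, 5, 6, 7, 6 members passed; the deviations of equally numbered libraries, which share only a number, correlated at -0.0139 between lung WT and KO and 0.169 between spleen WT and KO. Without *Ccl5* and mitochondrial genes in the denominator the members' mean share was 4.23% in lung WT, 3.40% in lung KO and 2.92% in spleen WT. In the spleen KO libraries it was 3.82% and 3.63%.

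Signs reversed as follows (log2). *Gzmb* in lung: library totals 0.0624, GC offset 0.00771, GC offset with replicate block 0.00814, exon length offset 0.0343, GC and exon length offset 0.19; in spleen: exon length offset -0.0683, both -0.23; interaction: totals 0.0594, exon length 0.10, both 0.42. *Srgn* in lung: totals 0.0653, GC 0.0815, GC with replicate block 0.0917, both offsets 0.16, without 1 library -0.0858 to 0.0421; in spleen: both offsets -0.0916; interaction: GC 0.0227, GC with replicate block 0.0242, both offsets 0.25. *Gzmc* in lung: totals 0.0769, exon length 0.13, both offsets 0.17, without 1 library -0.28 to 0.13. *Gzmk* in spleen: both offsets -0.0512. *Gzma*, lung against spleen in KO: exon length 0.0250, both offsets 0.30.

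The tests use the spread between libraries, not known to be that between mice. GC content and exon length moved with the comparisons, and what lies behind those trends was not tested; a difference in handling between groups cannot be told apart from genotype or organ. The calls for *Gzma*, *Nkg7* and *Prf1* in lung and spleen held in every setting but the assumed coefficient of variation.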
